A study of Mus musculus with 6 samples.

Results

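The tissue inhibitors of metalloproteinases Timp1, Timp2, Timp3 and Timp4 and the matrix metalloproteinases (MMPs) Mmp2, Mmp3, Mmp9, Mmp12, Mmp14 and Mmp15 were followed in the mouse subventricular zone after stroke surgery. They were found by gene symbol in the array's annotation, through probe sets with exactly 1 symbol, and 9 of the 10 genes were measured among 18193 genes in all. Mmp15 was not analysed here. Where a gene had several probe sets, the brightest over all 6 arrays stood for it. The study compared 3 arrays of tissue taken 48 h after middle cerebral artery occlusion (MCAO), from the side of the lesion, with 3 arrays of tissue taken 48 h after sham surgery. All animals were adult male C57BL/6 mice, with no transgene or drug named in the labels, and every array held total RNA of dissected tissue, which mixes cell types. Nothing in the labels says whether the 3 arrays of a group came from different mice. The p-values therefore reflect the spread among the samples as labelled, and that spread may be technical. In such bulk tissue, a different number of cells of a type and a different amount of RNA per cell cannot be told apart.

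MMPs are zinc-dependent proteases that cut collagens, laminins and other proteins of the extracellular matrix, and most are made as inactive proenzymes. TIMPs bind the active site of MMPs and block it, and Timp2 also takes part in activating pro-Mmp2 at the cell surface together with the membrane-anchored Mmp14. In the brain, MMPs are known for their part in matrix remodelling, cell migration and opening of the blood-brain barrier after injury, and Timp1 is known as an inducible gene of reactive astrocytes.

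The pair of arrays numbered 1, MCAO 1 and sham 1, lay away from the remaining 4 on the leading principal component (40.8% of the variance), and the next component (33.8%) separated MCAO from sham. Control probe sets for poly-A transcripts that can be added to the RNA averaged 7.41 on MCAO 1 and 7.67 on sham 1. On the remaining 4 arrays they averaged from 8.43 to 8.77. Whether this pair differed in tissue or in processing was not tested. Arrays with the same number deviated together from their group means, so fits with the sample number as a block were run beside those on groups only. The subventricular zone was checked by 8 markers of its progenitors and neuroblasts, of which 7 read above the median gene in sham, as did all 8 measured markers of striatal neurons, the neighbouring tissue, and 2 of 9 markers of the choroid plexus. All 8 striatal markers read lower in MCAO, with mean levels from 11.14 to 11.29 against 11.37 to 11.55 in sham, and all 8 progenitor and all 8 ependymal markers read higher. By limma 0 of these passed, with 1 higher progenitor, 1 higher ependymal and 2 lower striatal markers at an unadjusted p under 0.05. With the block 1 progenitor and 2 ependymal markers rose and 1 striatal marker fell. The part of such shifts in the members' values was not tested. Over all genes, 203 rose and 3 fell by limma with Benjamini-Hochberg adjustment at an adjusted p under 0.05, and 1113 passed with the block. By limma 1.12% of all genes rose and 0.0165% fell, and with the block 4.82% rose and 1.30% fell. At an unadjusted p under 0.05, 6.32% of all genes were higher and 2.46% lower. Each count of genes given for a list is to be read against the share for the same fit and threshold.

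The sequences just before the transcription start are shown for the 3 genes with the largest differences between MCAO and sham, Timp1, Mmp12 and Timp4, and for Mmp3, which lies near Mmp12 on chromosome 9 and differed by almost nothing. RefSeq's promoter table (GRCm38.p6) held windows of 250 bases before to 50 after the start for 8 of the 10 genes, and 2 for Mmp12, of which the more downstream is shown. Each run holds the 200 bases before the start, 5′ to 3′ on the strand of the gene, with capitals marking matches to AGGAAG, the core of many Ets factor sites, or to TGAGTCA, the AP-1 site, on either strand.
Timp1, chrX:20869966-20870165, plus strand: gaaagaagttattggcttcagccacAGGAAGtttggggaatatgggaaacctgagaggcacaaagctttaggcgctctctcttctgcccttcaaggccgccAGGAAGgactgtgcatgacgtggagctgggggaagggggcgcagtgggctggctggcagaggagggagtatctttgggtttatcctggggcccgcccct
Timp4, chr6:115252206-115252405, minus strand: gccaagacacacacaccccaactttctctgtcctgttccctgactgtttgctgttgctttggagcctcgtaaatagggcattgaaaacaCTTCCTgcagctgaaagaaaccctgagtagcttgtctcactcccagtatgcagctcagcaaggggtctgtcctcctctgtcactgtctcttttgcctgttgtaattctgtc
Mmp12, chr9:7347174-7347373, plus strand: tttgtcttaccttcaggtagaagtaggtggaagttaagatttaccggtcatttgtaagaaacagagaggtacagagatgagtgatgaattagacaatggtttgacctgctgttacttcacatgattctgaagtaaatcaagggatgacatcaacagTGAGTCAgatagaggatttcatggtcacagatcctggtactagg
Mmp3, chr9:7445622-7445821, plus strand: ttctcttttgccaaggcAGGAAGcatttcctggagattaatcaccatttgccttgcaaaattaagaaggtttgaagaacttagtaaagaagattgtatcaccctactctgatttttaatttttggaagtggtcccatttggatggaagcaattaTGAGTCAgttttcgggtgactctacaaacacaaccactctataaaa
On both strands of the whole windows, TGAGTCA was found in Mmp3 from base -46 to -40 and in Mmp12 from base -44 to -38, counted back from the start, and in no window of the other 6 genes nor in the upstream window of Mmp12. It occurred in 5.2% of all 32851 windows of this length. Timp1 held TGAGTAA, a variant of the AP-1 site found in 2.68% of all windows, from base 27 to 33 after its start. Timp1 also held AGGAAG 3 times, at -175, -99 and 41, which overlapped neither other motif. AGGAAG was found 1 time each in Timp3, Timp4, Mmp3, the upstream window of Mmp12 and Mmp14. Of all windows 35.4% held at least 1 match, and the share with 3 was not counted. The STAT pattern TTCNNNGAA, present in 8.3% of windows, was found in 0 of the 9 windows. A match describes these letters and not a bound factor.

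Timp1, which inhibits most soluble MMPs, was the member that rose. Its log2 values were 7.67, 7.58 and 8.22 on MCAO 1, 2 and 3 and 6.33, 6.62 and 6.40 on sham 1, 2 and 3. Every MCAO array lay above every sham array, and the lowest MCAO value was nearly a whole log2 unit above the highest sham value. The mean was 7.82 ± 0.35 in MCAO and 6.45 ± 0.15 in sham (SD, n = 3 each), a difference of 1.38 ± 0.17 log2 (SE) or 2.60-fold, with a 95% interval from 1.98-fold to 3.42-fold. By limma the adjusted p was 0.0118 over all genes, and 1.41e-04 with the block. Among the 18193 genes this was the 36th largest rise, in a comparison where 1.12% of genes rose. Within same-numbered samples the differences were 1.34, 0.97 and 1.83, highest in samples 3 and lowest in samples 2. Without sham 3 the difference was 1.35 but the adjusted p was 0.0841, and without both arrays numbered 1 the adjusted p was 0.00932.

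**Figure D1:**
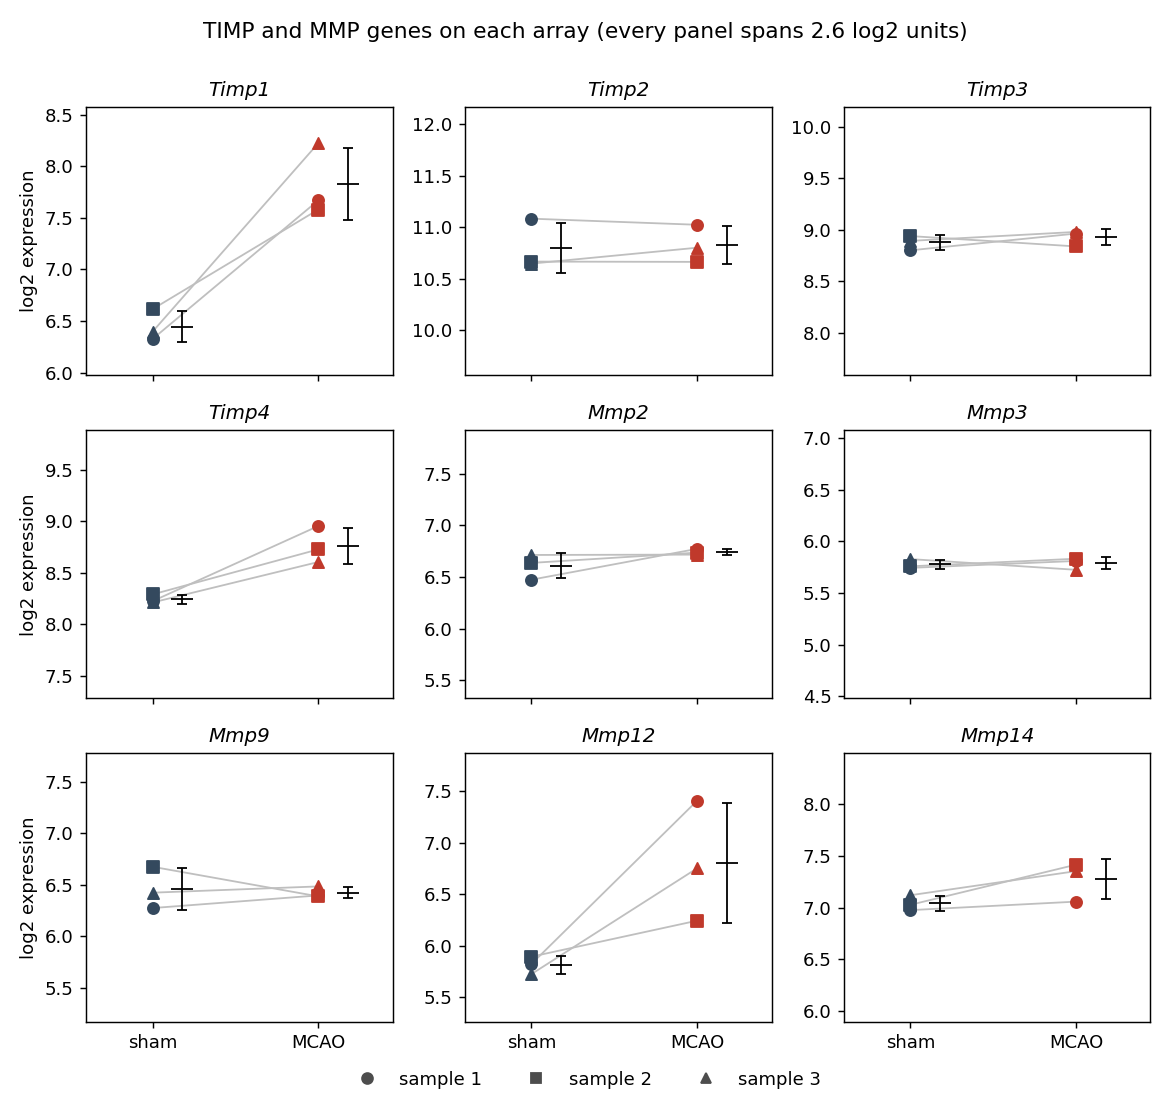
Log2 expression (vertical axis) of the 9 measured TIMP and MMP genes on the sham and MCAO arrays, with a symbol for each sample number, grey lines joining samples of the same number, and black bars for the mean and SD of 3 arrays. The MCAO points of Timp1, Timp4 and Mmp12 lie above all their sham points, while those of Timp2, Timp3, Mmp3 and Mmp9 overlap them.

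Timp4, a TIMP found mainly in brain and heart, read 8.95, 8.73 and 8.60 on MCAO 1, 2 and 3 and 8.22, 8.29 and 8.21 on sham 1, 2 and 3. The groups did not overlap, and the sham arrays lay within 0.1 log2 of each other while MCAO 1 was highest. The difference was 0.52 ± 0.10 log2 (SE, n = 3 per group), or 1.43-fold with a 95% interval from 1.22-fold to 1.68-fold. It did not pass by limma over all genes (adjusted p = 0.0693) and did with the sample number as a block (adjusted p = 0.00371). Within same-numbered samples it was 0.73, 0.44 and 0.39. Without both arrays numbered 1 it was 0.41, with an adjusted p of 0.139 without the block and 0.0162 with it. The latter rests mostly on the variance shared over genes, since few arrays remained.

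Timp2 and Timp3 did not pass. Timp2, the TIMP with a role in activating pro-Mmp2, read 11.02, 10.67 and 10.80 on MCAO 1, 2 and 3 and 11.08, 10.67 and 10.65 on sham 1, 2 and 3. The groups overlapped, and in both the array numbered 1 was highest. The difference was 0.031 log2, with a 95% interval from -0.30 to 0.36. Timp3, which binds to the matrix itself, read 8.96, 8.84 and 8.98 in MCAO and 8.80, 8.94 and 8.89 in sham. These groups overlapped too, with a difference of 0.050 and a 95% interval from -0.13 to 0.23, so changes of the size seen for Timp1 lie outside both intervals.

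The change of Timp1 was compared with those of its relatives by the log2 difference between the genes on each array. Timp1 changed by 1.35 more than Timp2, by 1.33 more than Timp3 and by 0.86 more than Timp4, and in all 3 comparisons every MCAO array lay above every sham array. The exact permutation test, 2-sided, gave p = 0.10 for each, also after Benjamini-Hochberg adjustment over the 3, which is the smallest that 3 arrays against 3 allow and does not pass.

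Among the MMPs, Mmp12, the macrophage metalloelastase, differed most. It read 7.41, 6.24 and 6.75 on MCAO 1, 2 and 3 and 5.82, 5.89 and 5.73 on sham 1, 2 and 3. The groups did not overlap, but the MCAO arrays were far apart, with MCAO 2 only 0.35 above sham 2 while MCAO 1 was 1.58 above sham 1. The mean was 6.80 ± 0.58 in MCAO and 5.81 ± 0.085 in sham (SD, n = 3 each), a difference of 0.99 ± 0.25 log2 (SE) or 1.98-fold, with a 95% interval from 1.32-fold to 2.98-fold. It did not pass by limma (adjusted p = 0.182), passed with the block (adjusted p = 0.00718), and passed without MCAO 2 (adjusted p = 0.0481). Without MCAO 1 the difference was 0.68 (adjusted p = 0.113).

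The other 4 MMPs did not pass by limma, with or without the block. Mmp14, a membrane-anchored collagenase, read 7.06, 7.42 and 7.35 on MCAO 1, 2 and 3 and 6.98, 7.03 and 7.12 on sham 1, 2 and 3. MCAO 1 lay among the sham arrays, and the difference of 0.24 had a 95% interval from -0.014 to 0.48 (adjusted p = 0.617, and 0.117 with the block). Mmp2, a gelatinase that cuts type IV collagen, read 6.77, 6.74 and 6.72 in MCAO and 6.47, 6.64 and 6.71 in sham. The lowest MCAO array and the highest sham array were nearly equal, and the difference was 0.13 (95% interval from -0.060 to 0.33). Without sham 1 it was 0.067, and without both arrays numbered 1 it was 0.052.

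Mmp9, the gelatinase most often linked to barrier opening after stroke, read 6.40, 6.39 and 6.48 on MCAO 1, 2 and 3 and 6.27, 6.67 and 6.42 on sham 1, 2 and 3. The MCAO arrays lay within the range of the sham arrays, and the highest value of all was that of sham 2. The difference was -0.035 with a 95% interval from -0.29 to 0.22 (adjusted p = 0.988), and the upper bound of that interval is a 1.16-fold rise. Mmp3, stromelysin 1, which can activate pro-Mmp9, read 5.81, 5.83 and 5.73 in MCAO and 5.74, 5.76 and 5.83 in sham. Its groups overlapped, with a difference of 0.012 (95% interval from -0.15 to 0.18). In sham, Mmp3 and Mmp12 read among the dimmest of all genes, at the 6.73rd and 7.66th percentile, and Timp1 and Mmp9 at the 31.3rd and 31.7th. Levels of different probe sets do not rank their transcripts.

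Counted together, 1 of the 9 measured members rose, 8 did not pass and 0 fell, against 1.12% of all genes that rose, 0.0165% that fell and 1.13% that passed in either direction. At an unadjusted p under 0.05, 3 were higher and 0 lower, against 6.32% and 2.46% of all genes. With the block 3 members rose, Timp1, Timp4 and Mmp12, and 0 fell. Of all genes 4.82% rose with the block, 1.30% fell and 6.12% passed in either direction. In 4 of the 9, Timp1, Timp4, Mmp12 and, by a margin of 0.0034, Mmp2, the 3 MCAO values lay above the 3 sham values, against 8.43% of all genes. In 0 of the 9 they lay below, against 5.37%. In every same-numbered sample 5 of the 9 were higher, against 20.0%. The median difference of the 9 was 0.13 log2, and that of all genes -0.0064.

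**Figure D2:**
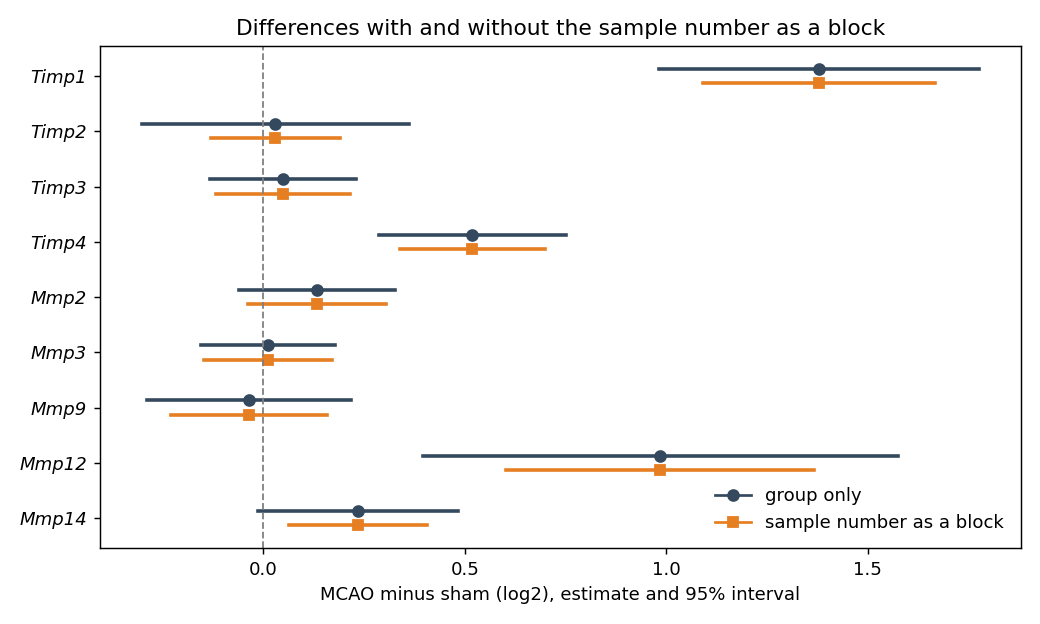
MCAO minus sham in log2 (horizontal axis) with 95% intervals for each gene, from the fit on groups only (dark circles) and the fit with the sample number as a block (orange squares). The intervals of Timp1, Timp4 and Mmp12 lie above 0 in both fits, that of Mmp14 lies above 0 only with the block, and those of the other 5 genes include 0.

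The probe sets of a gene were set side by side as a check. The 9 genes had 22 probe sets with 1 symbol, of which 17 read higher in MCAO. Over all genes 8671 of 18193 read higher, and the share over all probe sets was not counted. Probe sets of the same gene are not independent. Fitted by limma over all 34945 probe sets with 1 symbol, 1 of the 22 passed, that of Timp1 (adjusted p = 0.0181), against 0.644% of all probe sets. Timp1 and Mmp12 had no second probe set. The other probe set of Timp4, 1450974_at, differed in the same direction by 0.36 (adjusted p = 0.317, and 0.0556 with the block). Timp2 had 6 probe sets, and they disagreed: 1460287_at read 9.49, 9.72 and 9.72 on MCAO 1, 2 and 3 and 9.12, 9.35 and 9.42 on sham 1, 2 and 3. Its MCAO arrays all lay above its sham arrays, by 0.34 on average (adjusted p = 0.399, and 0.0262 with the block), while the other 5 Timp2 probe sets differed by -0.013 to 0.16 and did not pass in either fit. For Mmp2 the dimmer probe set, 1416136_at, differed by 0.23 (adjusted p = 0.548). The probe sets of Mmp14 disagreed in direction: besides the one used, 1416572_at differed by 0.22 and 1440920_at by -0.030 (adjusted p = 0.909 and 0.991). Of the 13 probe sets not used, 0 passed and 1 did with the block, against 3.61% of all probe sets.

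**Figure D3:**
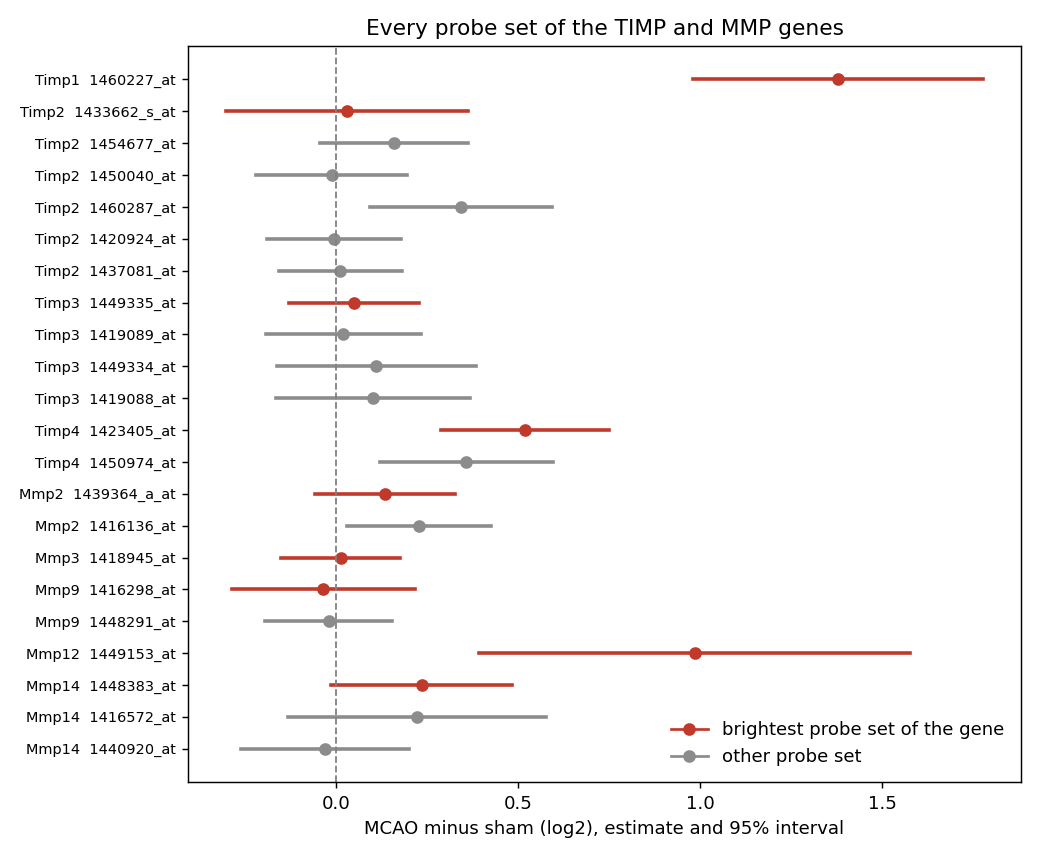
MCAO minus sham in log2 (horizontal axis) with 95% intervals for all 22 probe sets of the 9 genes, with the brightest of each gene in red and the others in grey. The Timp2 probe set 1460287_at lies at 0.34 while the brightest lies at 0.031, and both Timp4 probe sets lie above 0.

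Other genes of the protease system were read from 7 lists. Of 13 measured MMP genes outside the main set, 0 passed by limma, 0 were higher and 1 lower at an unadjusted p under 0.05, and their median difference was -0.0065. Mmp17, a membrane-anchored MMP expressed in brain, read 8.26, 8.39 and 8.44 in MCAO and 8.47, 8.59 and 8.71 in sham, a difference of -0.23 (adjusted p = 0.510). The MCAO arrays all lay below the sham arrays in 2 of the 13, Mmp17 and Mmp24, against 5.37% of all genes. They all lay above in 0 of the 13, against 8.43%. Mmp24, a membrane-anchored MMP of neurons, differed by -0.20 (adjusted p = 0.603), and the collagenase gene Mmp13 read 0.12 higher (adjusted p = 0.860). Of 10 genes of the plasminogen activator system, which can activate MMPs, 0 passed by limma, and 0 were higher and 1 lower at an unadjusted p under 0.05. The neuronal inhibitor gene Serpini1 differed by -0.30 (adjusted p = 0.440), the plasminogen receptor gene Plgrkt by 0.22 (0.773) and the urokinase receptor gene Plaur by 0.11 (0.854).

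Of 14 genes whose products, or their human counterparts, bind, activate, restrain or clear MMPs, 3 rose by limma and 11 did not pass. Their median was 0.067, and with the block 3 rose and 1 fell. Cd44, a hyaluronan receptor that can hold Mmp9 at the cell surface, read 8.43, 8.07 and 8.61 in MCAO and 6.42, 6.52 and 6.26 in sham, a rise of 1.97 ± 0.14 log2 (SE; adjusted p = 0.00304). A2m, which encodes a protease-trapping plasma protein, rose by 1.83 ± 0.16 (adjusted p = 0.00405). Lcn2, whose human counterpart can bind MMP9 and protect it, rose by 1.80 ± 0.16 (adjusted p = 0.00405). All 3 passed by limma whichever array was left out, and the MCAO arrays of each lay above its sham arrays. Cd44 and Lcn2 also stand on the list of reactive astrocyte markers, whose levels are given with the cell types. The gene that fell with the block was Spock2, which encodes a brain matrix proteoglycan, by 0.31 on the log2 scale (adjusted p = 0.948, and 0.0269 with the block). It read 9.17, 10.16 and 10.33 in MCAO and 9.38, 10.52 and 10.70 in sham, so the groups overlapped while each MCAO array lay below the sham array of its number. Reck, a membrane-anchored MMP inhibitor, and Furin, which activates membrane-anchored MMPs, differed by -0.056 and 0.017 and did not pass (adjusted p = 0.961 and 0.990).

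Of 17 ADAM and ADAMTS genes, which encode related metalloproteases, 0 passed by limma, with 4 higher and 2 lower at an unadjusted p under 0.05, and 3 rose and 1 fell with the block, the last being Adam23, a brain ADAM without protease activity (-0.31, adjusted p = 0.527, and 0.0236 with the block). Adamts1, which cuts proteoglycans, read 7.42, 7.40 and 7.82 in MCAO and 6.64, 6.78 and 6.97 in sham. Its groups did not overlap, and the difference of 0.75 had an adjusted p of 0.0542, and 1.68e-04 with the block. Adam17, the sheddase of membrane-bound TNF, read 0.30 higher and Adam8, a protease of leukocytes, 0.43 higher (adjusted p = 0.212 and 0.259, and 0.0345 and 0.0466 with the block). The median of the list was 0.032.

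Of 16 basement membrane genes, many of them MMP substrates, 1 rose by limma, against 1.12% of all genes. With the block 3 rose, against 4.82%. The median of the list was 0.084. Fn1, which encodes fibronectin, rose by 0.61 ± 0.10 log2 (SE; adjusted p = 0.0383), and this call held without MCAO 2 (0.0436) but was lost without each of the other 5 arrays, at adjusted p from 0.0768 without MCAO 1 to 0.180 without sham 3. The matricellular gene Sparc read 0.62 higher and the type IV collagen chain Col4a1 0.44 higher (adjusted p = 0.185 and 0.248, and 0.00845 and 0.0123 with the block). Of 8 endothelial junction genes, 0 passed by limma and 4 were higher at an unadjusted p under 0.05, with 1 passing under the block. The adhesion molecule F11r differed by 0.31, the tight junction claudin Cldn5 by 0.28 and the adhesion molecule Esam by 0.23, with adjusted p of 0.325, 0.458 and 0.514, and F11r passed with the block (0.0418) but not with the block on values as deposited or without both arrays numbered 1.

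The last list held 20 measured cytokines, receptors and transcription factors known to act upstream of Timp1 or of MMP genes, of which 3 rose by limma and 17 did not pass, with a median of 0.13 and with 5 rising under the block. Cebpd, a transcription factor of the acute phase response, rose by 1.50 ± 0.16 log2 (SE; adjusted p = 0.00688). Osmr, the receptor for oncostatin M, rose by 1.51 ± 0.17 (adjusted p = 0.0085), and Socs3, a feedback inhibitor of the same signalling, by 2.02 ± 0.28 (0.0167). Osmr lost its call without sham 3 (adjusted p = 0.0606), as did Socs3 (0.113), which also lost it without MCAO 2 (0.060). The others to pass under the block were Stat3 at 0.77 and Tgfb1 at 0.32 (adjusted p = 0.156 and 0.642, and 2.91e-04 and 0.0221 with the block). The 5 AP-1 genes on the list did not move together: Jun differed by 0.25, Fosl1 by 0.14, Fos by -0.019, Fosl2 by -0.14 and Junb by -0.38. By limma 0 of the 5 passed (adjusted p from 0.532 for Junb to 0.994 for Fos), 0 were higher and Junb was lower at an unadjusted p under 0.05, and 0 passed with the block.

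**Figure D4:**
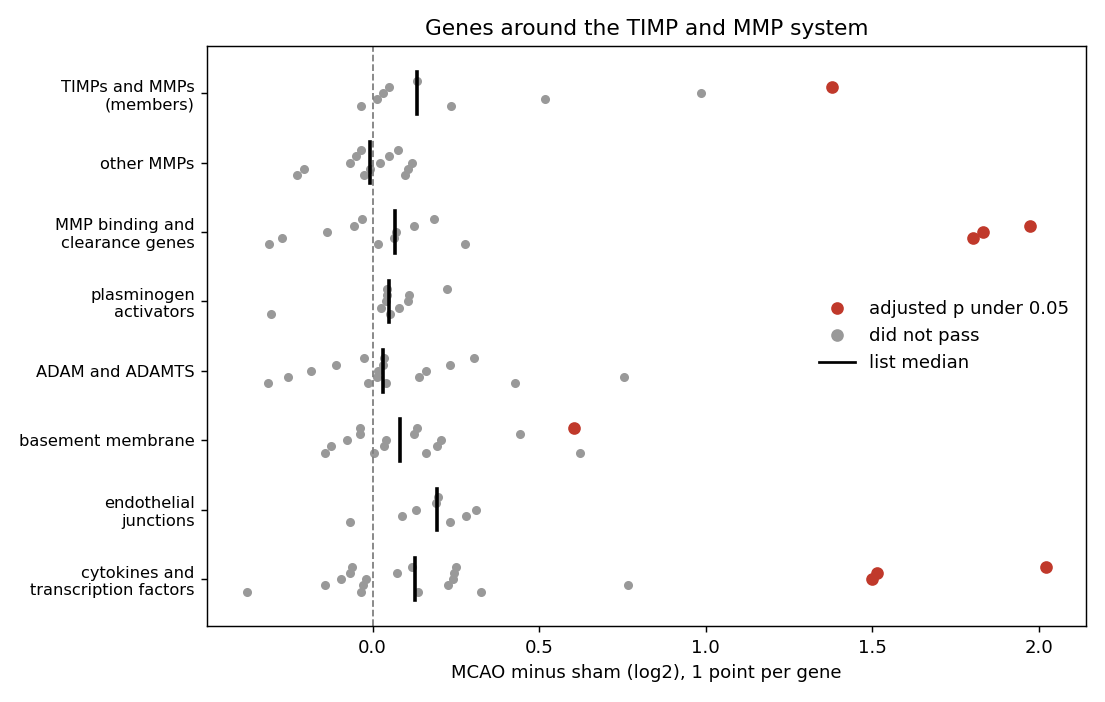
MCAO minus sham in log2 (horizontal axis) for each gene of the main set and of the 7 lists, with genes past an adjusted p of 0.05 in red, others in grey and list medians as black lines. Most points of every list lie near 0, and the red points beyond 1 log2 are Timp1, Cd44, A2m, Lcn2, Cebpd, Osmr and Socs3.

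Markers of the cells that can express TIMPs and MMPs were read on the same arrays. Of 10 reactive astrocyte markers, which include Cd44, Lcn2 and Osmr, 6 rose by limma, 8 with the block, and all 10 were higher, and their mean level ran from 8.68 to 9.21 in MCAO and from 7.10 to 7.47 in sham. It was highest on MCAO 3, the array where Timp1 was highest. That held for 5 of the 13 marker lists: reactive astrocytes, neutrophils, mural cells and fibroblasts, oligodendrocytes and striatal neurons. Of 11 markers of activated phagocytes 7 rose, and 9 with the block, with mean levels of 9.09, 8.62 and 8.88 on MCAO 1, 2 and 3 and from 7.83 to 7.95 in sham. That is the order of Mmp12 over the 3 MCAO arrays, highest on MCAO 1 and lowest on MCAO 2, and 5 of the 13 lists had it: activated phagocytes, microglia, monocytes and macrophages, astrocytes and endothelial cells. Of 9 microglial markers 2 rose, and 7 with the block, with mean levels of 8.94, 8.40 and 8.52 in MCAO and from 7.94 to 8.06 in sham. Of 11 markers of infiltrating monocytes and macrophages 4 rose, Mrc1, Ms4a6c, F13a1 and Fn1, and 6 with the block. Fn1 was also counted among the basement membrane genes. Of the 11, 9 were higher, but Ccr2 differed by only 0.039 and Cd163 by -0.13 (adjusted p by limma = 0.983 and 0.765). Every MCAO array of Cd163 lay below every sham array, against 5.37% of all genes. The mean level of the list ran from 6.78 to 6.88 in MCAO and from 6.44 to 6.55 in sham, and 2 of the 11 lay above the median gene in sham. Of 10 markers of astrocytes in healthy tissue 2 rose, and 3 with the block, but only 6 of the 10 were higher, with a median difference of 0.076. Their mean level was 10.60 on MCAO 1, 10.26 and 10.27 on the other MCAO arrays and from 10.10 to 10.24 in sham. The part of these cells in the values of Timp1, Timp4 and Mmp12 was not tested.

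Neutrophils are a known source of Mmp8 and Mmp9. Of 10 measured neutrophil markers 0 passed by limma, with 2 higher and 0 lower at an unadjusted p under 0.05, and 0 of the 10 lay above the median gene in sham. Their mean level ran from 6.30 to 6.40 in MCAO and from 6.16 to 6.33 in sham, and these ranges overlapped. Mmp8, already counted in this list and among the other MMP genes, differed by 0.11 (adjusted p = 0.875). It read 6.33, 6.20 and 6.31 in MCAO and 6.16, 6.28 and 6.08 in sham. Of 9 endothelial markers 0 passed (1 higher and 0 lower at an unadjusted p under 0.05). Of 12 markers of mural cells and fibroblasts, known sources of Mmp2 and Timp3, 1 rose by limma, Tagln, by 1.95 log2 (adjusted p = 0.0127). The median difference of the 12 was 0.070. Their mean level, which includes Tagln, ran from 7.68 to 7.83 in MCAO and from 7.46 to 7.53 in sham.

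The genes whose values lay nearest to those of Timp1 were found by the root mean square difference over the 6 arrays, each gene centred on its mean. They were Tubb6, a beta-tubulin (0.073 log2), Dab2, an endocytic adaptor (0.10), and Msn, which encodes the actin-linking protein moesin (0.13). Tubb6 read 7.66, 7.76 and 8.17 in MCAO and 6.40, 6.64 and 6.42 in sham, so it shared the highest MCAO array and the highest sham array of Timp1. Chosen for likeness over arrays of both groups, they also share the difference between the groups, with rises of 1.38, 1.28 and 1.29 log2, given as a description.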

How the data were processed

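Total RNA of dissected subventricular zone was hybridised to 6 one-colour, biotin-labelled arrays, per the labels' protocols. The deposited values are log2 expression, 1 per probe set, for 45101 probe sets. For their background correction and normalization, the method was not given in the sources used here. Compression of low values was not tested. The deposited medians lay between 6.57 and 6.59 and the 90th percentiles between 8.85 and 9.06, so quantile normalization between arrays was added. The number of arrays limits the precision.

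Gene symbols came from an annotation table of the platform. Of the probe sets, 34945 had 1 symbol, 932 several and 9160 none, and 64 controls were left out. The brightest probe set per gene left 18193 genes, fitted with limma 3.58.1 in R 4.3.3 (lmFit, eBayes), 2-sided, with Benjamini-Hochberg adjustment over all genes and a threshold of 0.05. Members, lists and rules were chosen with earlier results of these data known. Named genes are the members, the 3 smallest p in each pathway list and the 3 nearest patterns of a member past the threshold. Spock2, Reck, Furin, Adam23, Stat3, Tgfb1, the AP-1 genes, Mmp8, Tagln, Mrc1, Ms4a6c, F13a1, Ccr2 and Cd163 were added after their values were seen. The sample numbers stand in the titles of both groups with no meaning given. Deviations from group means correlated at 0.77, 0.44 and 0.48 between same-numbered arrays and at most at 0.29 between others. On that ground the numbers were taken to pair the samples. Deviations within a group cancel out, so these correlations are not independent of each other. The block fits use the same values, and their p-values depend on this pairing. Alternatives were the values as deposited or shifted to a common median, the block, the mean of probe sets, a filter on dim genes, other variance models, and leaving out arrays; leaving out both arrays numbered 1 was chosen after seeing the data.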

Additional observations from a re-analysis of the deposited data

How the results depend on the processing

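The direction of Timp1, Timp4, Mmp2, Mmp12 and Mmp14 was the same in every alternative run, though 1 unused Mmp14 probe set read lower in MCAO. With the mean of probe sets Mmp14 differed by 0.14. Timp1 against Timp2, Timp3 and Timp4 also kept its direction. The exact p was 0.10 to 0.20 with 1 array left out. Without both arrays numbered 1 it was 0.33, the smallest that the remaining arrays allow. With 1 array left out, Timp1 ran from 1.18 to 1.50, losing its call without sham 3 alone, Timp4 from 0.42 to 0.60, and Mmp12 from 0.68 to 1.26. With the sample number as a block, 3 fits were run: on quantile-normalised values, on values as deposited, and without both arrays numbered 1. In them Timp4 passed at 0.52, 0.54 and 0.41, Mmp12 passed at 0.99, 0.99 and 0.69, and 3, 3 and 3 members passed. The genes past the threshold then numbered 1113, 816 and 688, of which 877, 765 and 561 rose. In the last of these fits few arrays remained, and the members' standard errors were close, from 0.109 for Timp4 to 0.128 for Timp1. Those errors come mostly from the variance that eBayes shares over genes. The calls of that fit therefore say little about the spread among samples. With the dimmer genes left out, 4 members were tested (Timp2, Timp3, Timp4 and Mmp14) and 0 passed. With 1 array left out, 0 to 2 members passed, and 44 to 209 genes, of which 44 to 188 rose. The block changed no other member's call.

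Members near 0 changed sign without passing. With 1 array left out Timp2 ran from -0.066 to 0.17, Mmp3 from -0.0093 to 0.044 and Mmp9 from -0.13 to 0.074. Without both arrays numbered 1, with or without the block, Timp3 read -0.0067 and Mmp3 -0.015, and on values shifted to a common median Mmp3 read -0.0039.

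The count of ADAM and ADAMTS genes past the threshold was 1 on values as deposited and 1 with a common median, and 4, 2 and 1 with the 3 block fits named above. That of basement membrane genes was 3, 3 and 3 with them, 0 with the mean of probe sets, 0 without both arrays numbered 1, and 0 to 1 with 1 array left out. Junction genes numbered 1, 0 and 0 with them. Cytokines and factors numbered 5 with the block and 5 with it without both arrays numbered 1, and 1 to 3 with 1 array left out. The cause was not tested. Signal over background is not given, so Mmp3, Mmp9, Mmp12 and the sham level of Timp1, as low as that of Mmp9, have no detection call.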
